A study of Mus musculus with 8 samples.

Results

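The Ifit family of the mouse, the interferon-induced proteins with tetratricopeptide repeats, was described across 6 RNA-seq libraries of 4T1 cells, a mouse mammary carcinoma line used as a model of triple-negative breast cancer. The members were Ifit1, Ifit1bl1, Ifit2, Ifit3 and Ifit3b, 5 of the 28712 genes that the deposited tables hold. They were chosen by their symbols and on their measured differences between the groups below, so those differences are given as a description. No p is given for them, and how many members passed the threshold of the fit across all genes is given only beside the share of all genes that did. A sixth Ifit gene, Ifit1bl2, was no member and is given beside them.

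Ifit genes are induced by type I and type III interferons. A ligand at the cell surface activates the kinases Jak1 and Tyk2, which signal to a complex that holds Stat2 and Irf9. The complex binds interferon-stimulated response elements in the promoters of its targets. Several Ifit genes can also be induced directly by Irf3 downstream of sensors of foreign RNA or DNA. Ifit1 binds the 5′ end of RNAs whose cap lacks 2′-O-methylation and blocks their translation. Ifit2 and Ifit3 can bind each other, and Ifit3b is a close copy of Ifit3 in the mouse genome.

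All 6 libraries came from wild type 4T1 cells grown at 37 °C in 1% O2 and 5% CO2 and given a purified single-domain antibody at 0.5 µg/ml after the cells had reached confluence. In 2 libraries the antibody was sdAb-Con, the control, for 48 h. In 2 it was sdAb#07.81, directed against the stress-response protein NUPR1, for 24 h, and in 2 it was sdAb#07.81 for 48 h. The purified antibodies carried a Tat peptide for entry into cells and a degron from Odc1, and were made in human HEK293F cells. Libraries of untreated cells were not analysed here, and no group had sdAb-Con for 24 h, so time under sdAb#07.81 and time in culture cannot be told apart between 24 h and 48 h. Between sdAb-Con (48 h) and the 24 h group both agent and time differed. No source used here says that the 2 libraries of a group came from separate cultures, so the spread between them may be technical. Whether more cells or more RNA per cell gave a level cannot be told apart in bulk RNA.

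The tables give each gene's mean normalized count over 4 libraries, and the count of each library was rebuilt from these means. One set of 6 whole counts fitted both means in 28563 genes and several did in 149, which were left out; all 6 Ifit genes had one set. The rebuilt libraries could not be tied to their replicate numbers and are called a and b within a group. Totals over the solved genes ran from 12621906 to 15665831 counts a library. Normalized counts are counts divided by the library's size factor, which ran from 0.920 to 1.10. A difference is on the scale of log2(normalized count + 1) from 1 limma fit over the 6 libraries, and a gene was called at an adjusted p under 0.05. Its standard error (SE) draws on the spread of other genes and can be smaller than the gap between a gene's own libraries.

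The deposited tables place the 6 Ifit genes next to each other on chromosome 19, from 34528094 to 34627409, with no other listed gene between them. Their build is not named in the sources used here and differs from GRCm38, so these positions are as the tables list them. On the plus strand lie Ifit2 (ENSMUSG00000045932) at 34528094 to 34553819, Ifit3 (ENSMUSG00000074896) at 34560931 to 34566131, Ifit3b (ENSMUSG00000062488) at 34585370 to 34590801 and Ifit1 (ENSMUSG00000034459) at 34618271 to 34627409. Ifit1bl1 (ENSMUSG00000079339), at 34570291 to 34579356, and Ifit1bl2 (ENSMUSG00000067297), at 34594449 to 34618143, lie on the minus strand.

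The promoters are shown because they hold the letters by which interferon-stimulated genes are often recognised, and because they differ between the members. The sequences are from RefSeq on GRCm38.p6, each printed 5′ to 3′ on the strand of its gene and ending before the annotated start. Capitals mark matches to GAAANNGAAA on either strand, the core of an interferon-stimulated response element. The stretch of Ifit1, chr19:34640744-34640870 on the plus strand, runs to position -19 from its start, those of Ifit3, chr19:34583329-34583528, and Ifit3b, chr19:34607757-34607956, both on the plus strand, end at the base before it. So do the stretches of Ifit1bl1, chr19:34601969-34602168 on the minus strand, and Ifit2, chr19:34550494-34550693 on the plus strand.
Ifit1: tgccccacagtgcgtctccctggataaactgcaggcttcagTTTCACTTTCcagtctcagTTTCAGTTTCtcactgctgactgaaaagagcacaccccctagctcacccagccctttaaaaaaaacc
Ifit3: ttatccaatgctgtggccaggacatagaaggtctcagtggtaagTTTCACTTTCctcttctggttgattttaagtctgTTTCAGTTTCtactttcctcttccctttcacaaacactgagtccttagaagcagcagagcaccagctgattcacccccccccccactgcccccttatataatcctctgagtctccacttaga
Ifit3b: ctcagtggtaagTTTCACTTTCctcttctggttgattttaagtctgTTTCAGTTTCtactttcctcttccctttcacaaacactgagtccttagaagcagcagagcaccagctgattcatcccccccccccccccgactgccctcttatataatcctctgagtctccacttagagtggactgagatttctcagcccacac
Ifit1bl1: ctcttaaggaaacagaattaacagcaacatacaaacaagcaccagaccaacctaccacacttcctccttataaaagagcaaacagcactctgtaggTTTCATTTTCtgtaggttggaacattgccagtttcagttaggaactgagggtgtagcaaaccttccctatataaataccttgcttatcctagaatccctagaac
Ifit2: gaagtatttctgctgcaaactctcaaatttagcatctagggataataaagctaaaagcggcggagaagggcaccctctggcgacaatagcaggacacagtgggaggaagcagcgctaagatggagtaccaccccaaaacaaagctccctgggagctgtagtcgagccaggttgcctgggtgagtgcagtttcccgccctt

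Ifit1, Ifit3 and Ifit3b each held 2 matches in these stretches, Ifit1bl1 held 1, and Ifit2 held 0. Counted from the start, the matches began at positions -156 and -122 in Ifit3, -188 and -154 in Ifit3b, and -104 and -85 in Ifit1. The Ifit1 stretch, read on the other strand, is also the promoter at one of the annotated starts of Ifit1bl2, 145 bases from that of Ifit1. The window at the other annotated start of Ifit1bl2 held 0 matches. Of 32851 RefSeq promoter windows of 300 bases (250 before and 50 after the start), 1131 (3.44%) held the motif and 74 (0.225%) held at least 2 copies. A match is a description of the letters only, and both windows annotated for Ifit2 held none of them.

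Ifit1, which binds RNA caps, was highest in the sdAb#07.81 48 h libraries. Its counts were 430 and 424 with sdAb-Con at 48 h, 226 and 138 with sdAb#07.81 at 24 h, and 1061 and 1643 with sdAb#07.81 at 48 h. The normalized counts were 424 ± 21.1, 168 ± 53.0 and 1442 ± 486 (mean ± SD, n = 2 each) in the same order. No library of one group overlapped another group, and the order from lowest to highest was sdAb#07.81 at 24 h, sdAb-Con, and sdAb#07.81 at 48 h. The mean at sdAb#07.81 48 h was 3.40-fold that of sdAb-Con 48 h and 8.57-fold that of sdAb#07.81 24 h.

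Ifit3, a partner of Ifit2, followed the same order over a wider range. Its counts were 300 and 235 with sdAb-Con at 48 h, 25 and 50 with sdAb#07.81 at 24 h, and 583 and 1078 with sdAb#07.81 at 48 h. Normalized counts averaged 264 ± 29.8, 35.1 ± 17.4 and 887 ± 402 (SD, n = 2 each). The 3 groups did not overlap. Against sdAb-Con 48 h the mean of sdAb#07.81 48 h was 3.36-fold higher, and against sdAb#07.81 24 h it was 25.3-fold higher.

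Ifit3b, the copy of Ifit3, had counts of 209 and 147 with sdAb-Con at 48 h, 27 and 16 with sdAb#07.81 at 24 h, and 406 and 739 with sdAb#07.81 at 48 h. These are normalized counts of 176 ± 33.0, 19.9 ± 6.66 and 612 ± 271 (SD, n = 2 each), again with no overlap between groups. The mean of sdAb#07.81 48 h was 3.48-fold that of sdAb-Con 48 h and 30.8-fold that of sdAb#07.81 24 h.

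Ifit2, which binds Ifit3 and AU-rich RNA, had another pattern. Its counts were 990 and 831 with sdAb-Con at 48 h, 1032 and 1133 with sdAb#07.81 at 24 h, and 1586 and 2305 with sdAb#07.81 at 48 h. The normalized counts of 901 ± 57.8, 1007 ± 95.2 and 2073 ± 610 (SD, n = 2 each) set the sdAb#07.81 48 h libraries above the other 4. The other groups touched: library a of sdAb-Con 48 h had 942 normalized counts and library a of sdAb#07.81 24 h had 940. The mean of sdAb#07.81 48 h was 2.30-fold that of sdAb-Con 48 h and 2.06-fold that of sdAb#07.81 24 h.

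Ifit1bl1, an Ifit1-like gene, was near the limit of detection, with 4 and 2 counts in sdAb-Con 48 h, 0 and 1 in sdAb#07.81 24 h, and 10 and 15 in sdAb#07.81 48 h. Its mean normalized count of 5.58 was under the minimum of 10 for the fit. Summed over the 2 libraries of a group and corrected for size factors, 25 counts against 6 gave a ratio of 4.45 (exact 95% interval 1.78 to 13.3) of sdAb#07.81 48 h to sdAb-Con 48 h. Against the 1 count of sdAb#07.81 24 h the ratio was 28.5 (4.67 to 1171). These intervals cover counting error only. Ifit1bl2, the other Ifit1-like gene, had 34 and 16 counts in sdAb-Con 48 h, 6 and 8 in sdAb#07.81 24 h, and 59 and 65 in sdAb#07.81 48 h, with no overlap between groups.

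**Figure D1:**
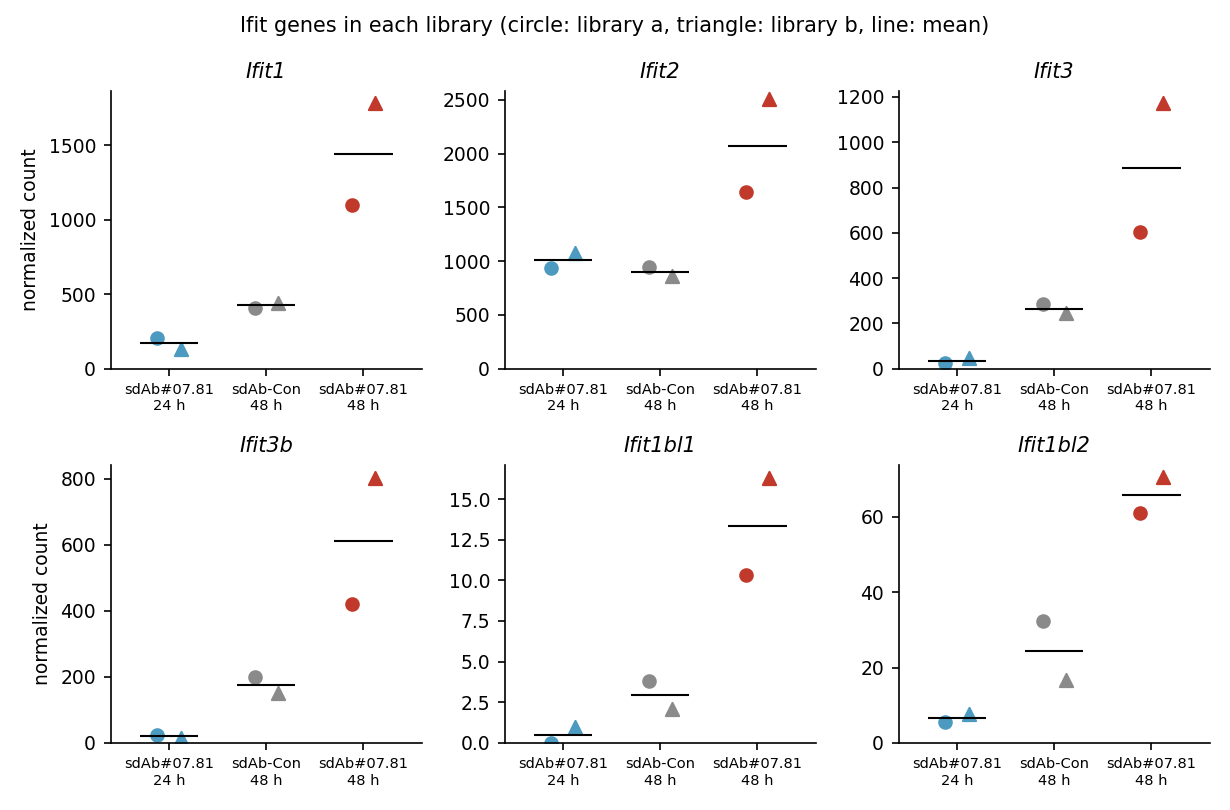
Normalized counts (y axis, from 0, with a scale of its own in each panel) of the 5 members and Ifit1bl2 in the 3 groups (x axis), with a circle for library a, a triangle for library b and a line for the mean. Both sdAb#07.81 48 h libraries sit above the other 4 in each panel, and only in Ifit2 do the sdAb#07.81 24 h and sdAb-Con 48 h libraries overlap.

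Per kb of exon, Ifit1, Ifit2 and Ifit3 had similar levels at sdAb#07.81 48 h, with Ifit3b lower, and spread over a wider range at 24 h. With sdAb#07.81 at 48 h the mean level was 543 normalized counts per kb for Ifit1, 528 for Ifit2, 509 for Ifit3 and 306 for Ifit3b. With sdAb-Con at 48 h the same genes had 160, 230, 152 and 87.8 normalized counts per kb. With sdAb#07.81 at 24 h Ifit2 had 256 per kb, Ifit1 63.4, Ifit3 20.1 and Ifit3b 9.94. Ifit1bl1 was far below the others, at 5.90 per kb in the group where it was highest. Exon lengths were the merged exons of GENCODE vM21.

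The makeup of the family's counts moved with this. Ifit2 held 78.8% and 84.7% of the counts of the 5 members in the sdAb#07.81 24 h libraries, 51.2% and 50.7% with sdAb-Con at 48 h, and 43.5% and 39.9% with sdAb#07.81 at 48 h. Ifit3 held 1.91% and 3.74%, then 15.5% and 14.3%, then 16.0% and 18.7%. Ifit1 held 17.3% and 10.3% in the 24 h libraries against 22.2% to 29.1% in the 48 h libraries of both antibodies. All 5 together made up 83.6 and 90.3 CPM of the solved counts with sdAb#07.81 at 24 h, 132 and 127 with sdAb-Con at 48 h, and 276 and 458 with sdAb#07.81 at 48 h.

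The comparison of sdAb#07.81 with sdAb-Con at 48 h asked what the antibody against NUPR1 changed at a matched time. On the log2 scale the difference was 1.73 for Ifit3b (SE 0.275), 1.72 for Ifit1 (SE 0.206), 1.67 for Ifit3 (SE 0.286) and 1.17 for Ifit2 (SE 0.155). The 4 tested members were all called higher, where 6.48% of the 13804 tested genes were called higher. In all 5 members both libraries of sdAb#07.81 lay above both of sdAb-Con, an arrangement found in 27.7% of tested genes. The members were chosen on this contrast, so nothing is read from these counts. The median over the 4 tested members was 1.70, beside -0.02 over all tested genes. Ordered by this difference, Ifit3b was gene 30 of the 13804, Ifit1 32, Ifit3 38 and Ifit2 186. Ifit1bl2 had a difference of 1.46 (SE 0.413).

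The comparison of sdAb#07.81 at 48 h with sdAb#07.81 at 24 h followed time. Here the log2 difference was 4.84 for Ifit3b (SE 0.275), 4.63 for Ifit3 (SE 0.286), 3.09 for Ifit1 (SE 0.206) and 1.01 for Ifit2 (SE 0.155). Ifit3b and Ifit3 were genes 5 and 6 in the order of differences, Ifit1 was gene 75 and Ifit2 gene 1000. All 4 tested members were called higher, beside 21.2% of tested genes, and in all 5 members both 48 h libraries lay above both 24 h libraries, beside 35% of tested genes. Nothing is read from these counts either, since the contrast was used to choose the members. Ifit1bl2 had a difference of 3.16 (SE 0.413).

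These comparisons share the 2 sdAb#07.81 48 h libraries, so what separates them is the comparison of sdAb-Con 48 h with sdAb#07.81 24 h. There the log2 difference was 3.11 for Ifit3b, 2.96 for Ifit3, 1.36 for Ifit1 and -0.16 for Ifit2, with the SEs above. The mean of sdAb-Con 48 h was thus 8.83-fold that of sdAb#07.81 24 h in Ifit3b, 7.54-fold in Ifit3 and 2.52-fold in Ifit1, and 0.895-fold in Ifit2. Of the 4 tested members 3 were called higher, Ifit2 not, beside 25.1% of tested genes. Both sdAb-Con 48 h libraries lay above both sdAb#07.81 24 h libraries in 4 of the 5 members, beside 37.2% of tested genes. The members were chosen on contrasts that share these libraries, and nothing is read from the counts.

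**Figure D2:**
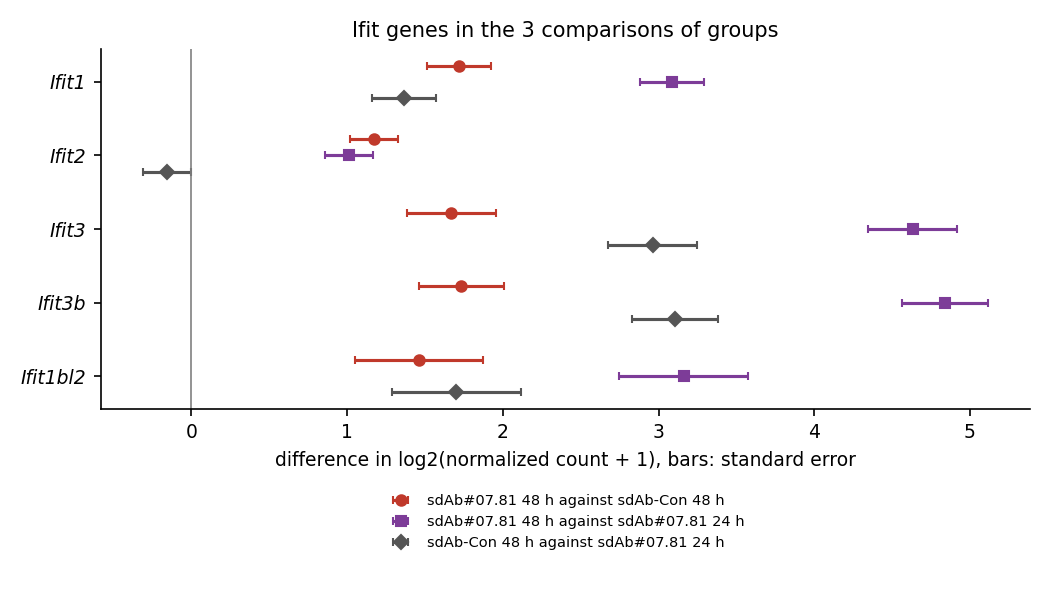
Difference in log2(normalized count + 1) with its standard error (x axis) for each fitted Ifit gene (y axis) in the 3 comparisons of groups. In sdAb#07.81 48 h against sdAb-Con 48 h (circles) the members lie between 1.17 and 1.73, and against sdAb#07.81 24 h (squares) they spread from 1.01 for Ifit2 to 4.84 for Ifit3b. In sdAb-Con 48 h against sdAb#07.81 24 h (diamonds) Ifit2 lies at -0.16 and the other members at 1.36 to 3.11.

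The 2 libraries of sdAb#07.81 48 h were apart in every member, and library b was the higher one each time. Library b held 1.94-fold the normalized count of library a for Ifit3, 1.91-fold for Ifit3b, 1.63-fold for Ifit1, 1.57-fold for Ifit1bl1 and 1.53-fold for Ifit2. Of all tested genes 2.24% were as far apart between these libraries as Ifit3 and 6.61% as far apart as Ifit2, in either direction. Ifit1bl2 was 1.16-fold higher in b. Between the single libraries of sdAb#07.81 48 h and sdAb-Con 48 h the fold therefore ran from 2.11 to 4.81 in Ifit3, 2.11 to 5.27 in Ifit3b, 2.50 to 4.36 in Ifit1 and 1.74 to 2.91 in Ifit2. The 11 listed signalling, sensor and feedback genes called higher with sdAb#07.81 at 48 h differed between b and a by -0.01 in Tlr3 to 0.78 in Usp18 on the log2 scale, with Isg15 at 0.75, Irf9 at 0.23 and Ddx58 at 0.14 between these. The part of any preparation step in this gap was not tested.

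Within sdAb#07.81 24 h the members did not move together between libraries. Library b held 2.08-fold the Ifit3 of library a but 0.617-fold the Ifit3b and 0.636-fold the Ifit1. Those Ifit3 and Ifit3b values rest on 16 to 50 counts each. In sdAb-Con 48 h the members' b libraries lay between 0.765-fold, in Ifit3b, and 1.07-fold, in Ifit1, of library a, leaving aside the 4 and 2 counts of Ifit1bl1.

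Close copies limit how far Ifit3 and Ifit3b can be told apart. In GENCODE vM21 the coding sequences of both are 1209 bases long and identical at 1198 of them (99.1%), with no gap and 11 differences. The next closest pair, Ifit1bl1 and Ifit1bl2, was 88.2% identical, Ifit1 was 78.6% identical to Ifit1bl1, and Ifit2 was 62.3% to 69.2% identical to the others. The stretch from coding base 34 to 183 is shown because it is as long as 1 read of 150 bases and holds the median number of differences, 1, which the capital marks. A read of this stretch names its gene by that base alone.
Ifit3: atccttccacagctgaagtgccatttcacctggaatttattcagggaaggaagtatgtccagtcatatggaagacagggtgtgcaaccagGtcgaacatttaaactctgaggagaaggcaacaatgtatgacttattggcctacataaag
Ifit3b: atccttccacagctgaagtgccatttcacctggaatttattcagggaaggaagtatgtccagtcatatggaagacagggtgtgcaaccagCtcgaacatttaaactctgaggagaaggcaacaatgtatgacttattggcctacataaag

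Over all 1060 stretches of this length in the coding sequence the number of differences ran from 0 to 4, and 296 stretches had none. Of the 150-base windows of the annotated transcript, 18.5% of Ifit3 and 16.0% of Ifit3b occur letter for letter in the other gene. For Ifit1 the share with a copy in another gene was 1.24%, and for Ifit2 and Ifit1bl1 it was 0. How the counting treated a read that fits both genes is not given in the sources used here, so the separate values of Ifit3 and Ifit3b are uncertain to that extent.

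The ratio of the copies' counts was close between the 48 h libraries. Ifit3 took 58.9% (Wilson 95% interval 54.6 to 63.1) and 61.5% (56.5 to 66.3) of the counts of both copies in sdAb-Con 48 h, and 58.9% (55.9 to 62.0) and 59.3% (57.1 to 61.6) in sdAb#07.81 48 h. In sdAb#07.81 24 h the share was 48.1% (35.1 to 61.3) of 52 counts and 75.8% (64.2 to 84.5) of 66 counts. Those 2 libraries lay on either side of the others, and their intervals do not overlap. Pooled over a group, the share was 60.0% with sdAb-Con at 48 h, 63.6% (54.6 to 71.7) with sdAb#07.81 at 24 h and 59.2% with sdAb#07.81 at 48 h. The intervals cover counting error only.

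**Figure D3:**
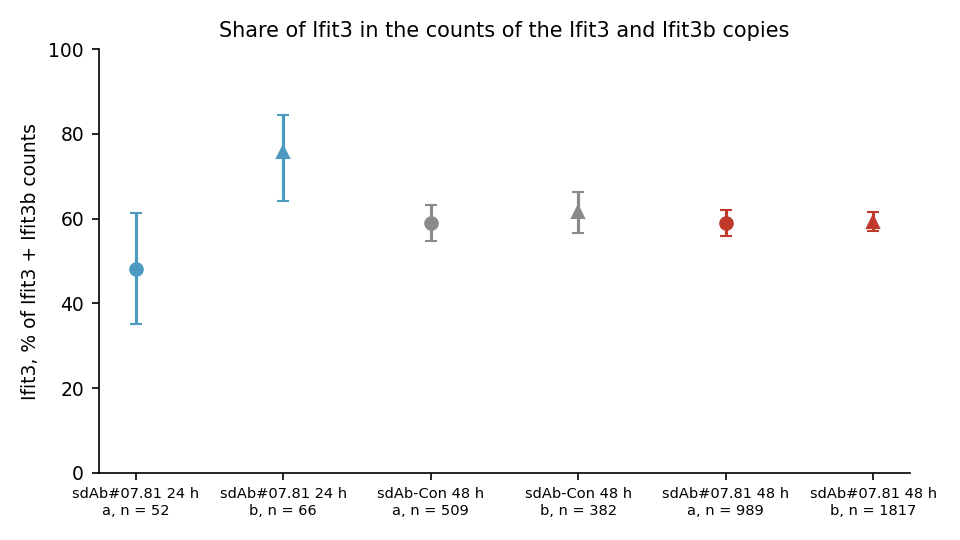
Share of Ifit3 in the counts of Ifit3 and Ifit3b together (y axis, percent) in each library (x axis, with the number of counts n), with Wilson 95% intervals as bars. The 4 libraries at 48 h lie between 58.9% and 61.5%, and the 2 at 24 h, with 52 and 66 counts, lie at 48.1% and 75.8%.

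The genes upstream of the Ifit family were taken by role. Whether their changes came before or after those of the Ifit genes was not tested. Few ligand counts were found: Ifnb1, the type I interferon made by most cells, had 0 to 4 counts a library, and Ifne had 0 to 2. The other 6 ligands listed (Ifna2, Ifna4, Ifnk, Ifnl2, Ifnl3 and Ifng) were not analysed here. Of the 6 receptor genes tested, 0 were called in sdAb#07.81 48 h against sdAb-Con 48 h by limma with Benjamini-Hochberg adjustment, at adjusted p from 0.395 to 0.914, and 0 had an unadjusted p under 0.05. In the comparison with sdAb#07.81 24 h, 4 of 6 were higher at 48 h, beside 21.2% of tested genes, and 0 lower, namely Ifnar1 (log2 difference 0.37), Ifnar2 (0.79), Ifngr1 (0.43) and Ifngr2 (0.39). The first pair of genes encodes the type I receptor and the second that of interferon gamma. Without library a of sdAb#07.81 48 h, 1 of the 6 was called. The median over the receptors was -0.07 against sdAb-Con and 0.38 against 24 h.

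Among 10 genes that carry the signal to the Ifit promoters, 3 rose and 0 fell in sdAb#07.81 48 h against sdAb-Con 48 h, beside 6.48% of all tested genes called higher. Stat2 rose by 1.22 on the log2 scale (SE 0.129), Irf7, which amplifies interferon expression, by 0.78 (SE 0.173), and Irf9 by 0.50 (SE 0.137). Stat2 counts were 1028 and 985 with sdAb-Con at 48 h, 491 and 452 with sdAb#07.81 at 24 h, and 1992 and 2423 with sdAb#07.81 at 48 h, with no overlap between groups. The adjusted p (limma) was 2.69e-05 for Stat2 and 0.027 for Irf9. In each, both sdAb#07.81 48 h libraries lay above both of sdAb-Con, an arrangement found in 27.7% of tested genes. The list was chosen with earlier results of these data known. With any of library a or b of sdAb-Con 48 h or library b of sdAb#07.81 48 h left out, 1 of the 10 was called. In sdAb#07.81 48 h against 24 h, 6 of the 10 rose and 0 fell, beside 21.2% of tested genes called higher: Irf7 by 3.89, Stat2 by 2.41, Irf9 by 2.29, Irf1 by 1.42, Irf5 by 0.76 and Irf2 by 0.70. The list's median difference was 0.19 against sdAb-Con and 0.73 against 24 h, beside -0.02 and -0.01 over all tested genes. Jak1, Tyk2, Irf3 and Irf8 passed in neither comparison.

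Of 11 sensors of foreign nucleic acid and their adaptors, 6 rose and 0 fell with sdAb#07.81 against sdAb-Con at 48 h, beside 6.48% of tested genes called higher. These were Ifih1 (1.02), Zbp1 (0.97), Eif2ak2 (0.81), Tlr3 (0.79), Ddx58 (0.64) and Dhx58 (0.55), of which Ifih1, Ddx58, Dhx58 and Tlr3 recognise double-stranded RNA, Eif2ak2 is the kinase PKR, and Zbp1 recognises Z-form nucleic acid. Against sdAb#07.81 24 h the same list gave 6 higher, beside 21.2% of tested genes, and 1 lower. Zbp1 rose by 3.86, Dhx58 by 2.49, Ifih1 by 1.80, Ddx58 by 1.56, Eif2ak2 by 1.37 and Tlr3 by 0.61, and Sting1, the adaptor of the DNA sensor cGAS, fell by 0.59. Without library b of sdAb#07.81 24 h or library a of sdAb#07.81 48 h no sensor was called lower. For the lower direction the background was 3.46% of tested genes against sdAb-Con and 22% against 24 h. The list's median was 0.55 and 0.61 in these comparisons. Mavs, Cgas, Tbk1 and Ikbke were not called in either.

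Of 4 feedback genes, Usp18 and Isg15 rose with sdAb#07.81 against sdAb-Con at 48 h, and Socs1 and Socs3 were not called, beside 6.48% of tested genes called higher. Usp18, which removes Isg15 from proteins and dampens signalling from the type I receptor, had counts of 515 and 421, then 65 and 66, then 848 and 1386 in sdAb-Con 48 h, sdAb#07.81 24 h and sdAb#07.81 48 h. Isg15, a ubiquitin-like modifier, had 1069 and 1004, then 187 and 122, then 1704 and 2734. In both genes the order of the groups was that of Ifit1, Ifit3 and Ifit3b, with no overlap. Against sdAb-Con the log2 difference was 1.31 for Usp18 (SE 0.195) and 1.15 for Isg15 (SE 0.195), and against 24 h it was 4.22 and 4.02. Socs3 rose by 0.46 in the latter comparison, which made 3 of 4 higher, beside 21.2% of tested genes.

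**Figure D4:**
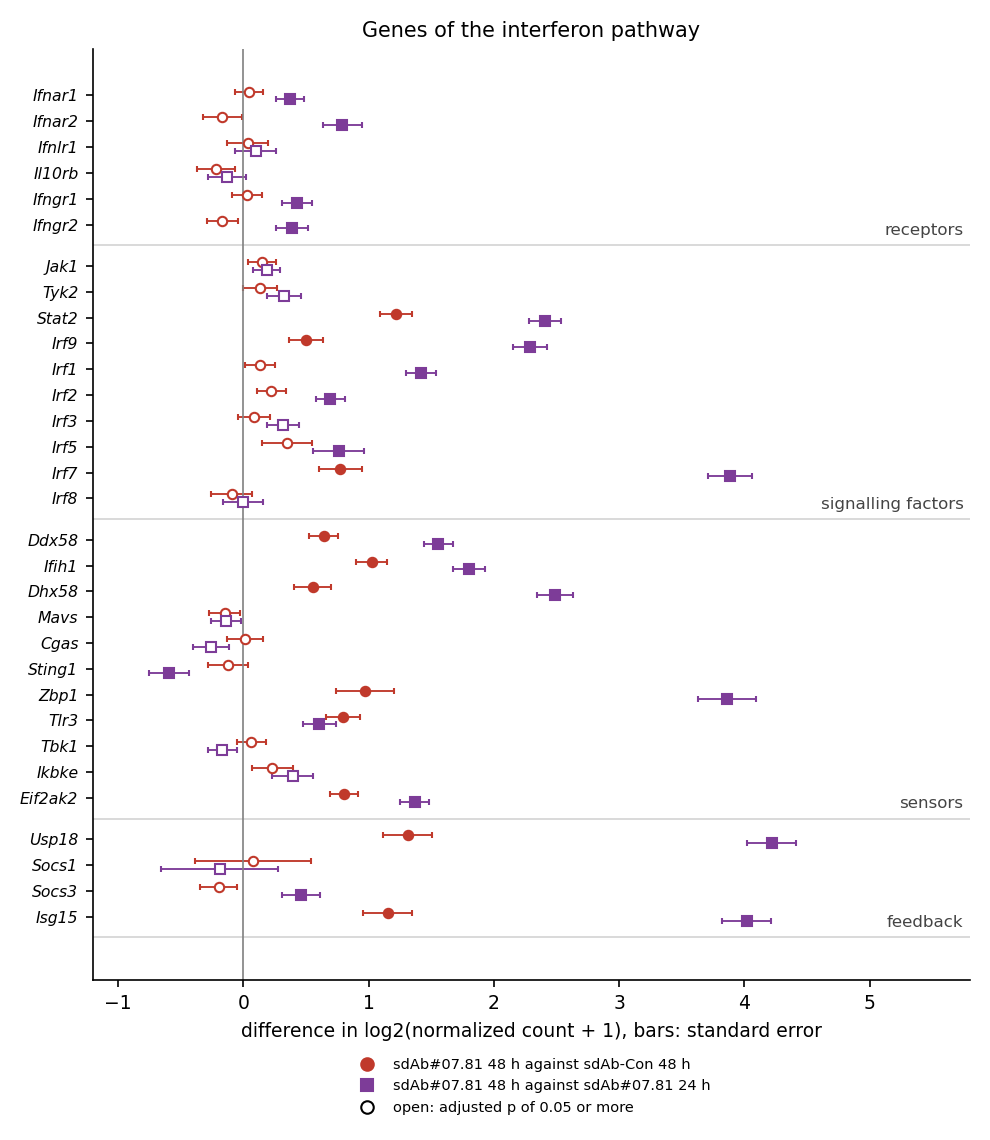
Difference in log2(normalized count + 1) with its standard error (x axis) for receptors, signalling factors, sensors and feedback genes (y axis), with circles for sdAb#07.81 48 h against sdAb-Con 48 h and squares for sdAb#07.81 48 h against sdAb#07.81 24 h, filled where the adjusted p was under 0.05. In the first comparison 0 of 6 receptors, 3 of 10 signalling factors, 6 of 11 sensors and 2 of 4 feedback genes are filled, all to the right of 0.

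Between sdAb-Con 48 h and the 24 h group of sdAb#07.81, 4 receptors, 5 signalling factors, 5 sensors and 3 feedback genes were called higher with sdAb-Con at 48 h, beside 25.1% of all tested genes, and 1 sensor lower, beside 25.6%. Irf7 differed by 3.11, Usp18 by 2.91 and Isg15 by 2.86 on the log2 scale. Without library a of sdAb-Con 48 h or library a of sdAb#07.81 24 h, 2 receptors were called. Without library a or library b of sdAb-Con 48 h no sensor was called lower.

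Further lists held the enzymes whose cap marks Ifit1 reads and the subunits of eIF3. None of 6 enzymes that build or methylate the cap was called between the antibodies at 48 h by limma, at adjusted p from 0.522 to 0.945, and 0 had an unadjusted p under 0.05. From 24 h to 48 h of sdAb#07.81, Cmtr1, which adds the 2′-O-methyl mark to the first base, rose by 0.62, and Cmtr2 and Pcif1 fell by 0.52 and 0.43, where 21.2% of tested genes were called higher and 22% lower. Fewer of the 6 were called without library a or without library b of sdAb#07.81 48 h. In sdAb-Con 48 h against the 24 h group Cmtr1 (0.46) was higher, beside 25.1% of tested genes. There Cmtr2 (-0.43) and Pcif1 (-0.35) were lower, beside 25.6%. Of 12 tested subunits of the initiation factor eIF3, which IFIT proteins bind, 3 were lower and 0 higher with sdAb#07.81 against sdAb-Con at 48 h: Eif3i by -0.48, Eif3f by -0.43 and Eif3k by -0.40. Over all tested genes 3.46% were called lower and 6.48% higher. None of the 12 was called without library a or b of sdAb-Con 48 h or library a of sdAb#07.81 48 h. Against 24 h, 4 were higher (Eif3f 0.73, Eif3h 0.68, Eif3k 0.50, Eif3m 0.39) and 4 lower (Eif3b -0.84, Eif3j2 -0.55, Eif3j1 -0.48, Eif3l -0.30), beside 21.2% of tested genes higher and 22% lower. In sdAb-Con 48 h against the 24 h group, 7 were higher (Eif3f 1.16, Eif3h 0.92, Eif3k 0.90, Eif3m 0.67, Eif3i 0.57, Eif3d 0.32, Eif3c 0.26) and 3 lower (Eif3b -0.68, Eif3j2 -0.57, Eif3j1 -0.35), beside 25.1% and 25.6%, and 6 of the 12 were called without library b of sdAb-Con 48 h. Eif3a and Eif3e were among the genes with several sets of counts and have no value.

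The genes beside the cluster were taken from the tables' positions. Of the 4 listed genes on each side, Ch25h, Gm26902, Slc16a12 and Gm22082 had 0 to 3 counts a library, and Fas, Lipa, Pank1 and Kif20b were tested. Between the antibodies at 48 h Kif20b, a mitotic kinesin, rose by 0.64, beside 6.48% of tested genes called higher. Fas (0.20), Lipa (-0.03) and Pank1 (0.18) were not called. From 24 h to 48 h of sdAb#07.81, Fas, a death receptor, rose by 1.71 and Lipa, the lysosomal acid lipase, by 1.17, Kif20b fell by 0.91, and Pank1 (0.02) was not called, beside 21.2% of tested genes called higher and 22% lower. Between sdAb-Con 48 h and the 24 h group, Fas differed by 1.51, Lipa by 1.20, Kif20b by -1.55 and Pank1, not called, by -0.15. Over all tested genes 25.1% were called higher and 25.6% lower in that comparison.

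Tgtp1, Cmpk2, Gbp5 and Ddx60 were among the 5 tested genes whose profile over the 6 libraries lay nearest to the mean profile of the tested members. Nearness was the Euclidean distance between log2(normalized count + 1) profiles, each centred on its mean, and was 0.398 for Tgtp1, 0.480 for Cmpk2, 0.517 for Gbp5 and 0.603 for Ddx60, beside a median of 3.49 over all tested genes. Tgtp1, an interferon-induced GTPase that has a near copy of its own in the mouse, had counts of 75 and 53 with sdAb-Con at 48 h, 16 and 19 with sdAb#07.81 at 24 h, and 136 and 180 with sdAb#07.81 at 48 h. Cmpk2, a mitochondrial nucleotide kinase induced by interferon, had 210 and 196, then 45 and 47, then 456 and 642. Gbp5, a guanylate-binding protein, had 197 and 128, then 34 and 40, then 291 and 434. All of these kept the groups apart in the order of Ifit1. They were chosen for a profile near the members' mean, so nothing is read from that order. Among the Ifit genes themselves Ifit1 lay at 0.671 from the mean profile, Ifit1bl2 at 0.784, Ifit3 at 1.57, Ifit3b at 1.66 and Ifit2 at 2.56, and the 4 tested members enter that mean.

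**Figure D5:**
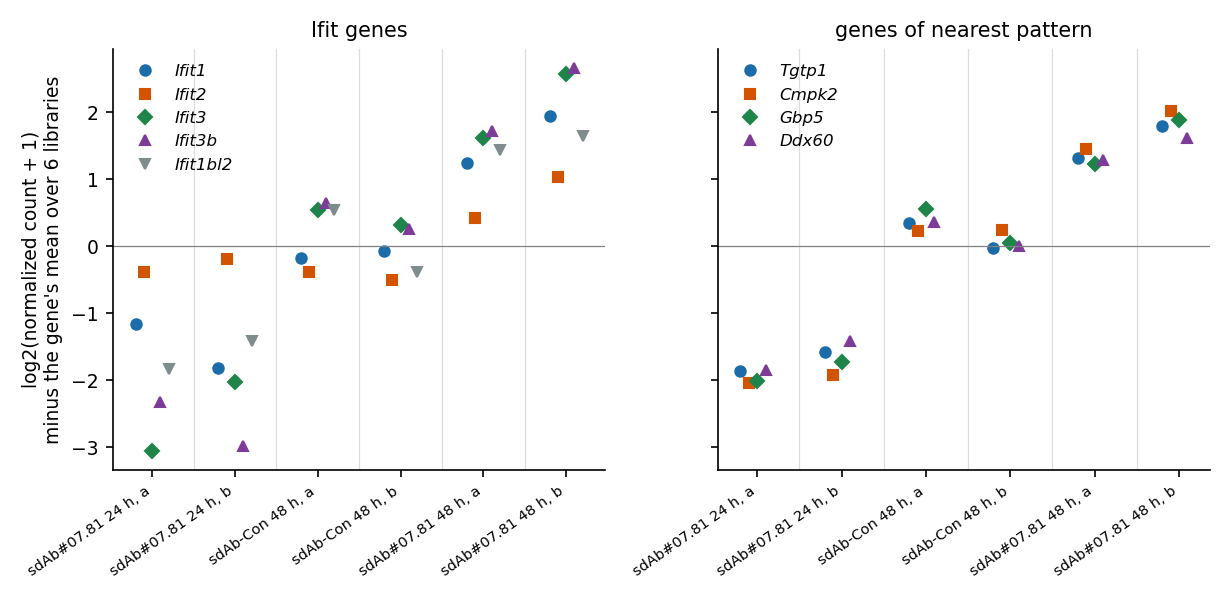
Profiles of the fitted Ifit genes (left) and of 4 of the 5 other genes nearest to the members' mean profile (right), as log2(normalized count + 1) minus the gene's mean (y axis) in each library (x axis), a marker for each gene and library. Ifit2 stays nearest to 0 in the sdAb#07.81 24 h libraries, where Ifit3 and Ifit3b lie lowest, and the genes on the right lie between these.

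The labelled cell type was checked by its markers. Of 7 epithelial markers 6 were tested, with 34613 to 46155 counts a library in sum, and 1 was called between the antibodies at 48 h, Krt14 (-0.52), which lost its call without any 1 of the 4 libraries. Over all tested genes 3.46% were called lower between the antibodies. From 24 h to 48 h of sdAb#07.81 Krt14 fell by 1.32, beside 22% of tested genes called lower. In sdAb-Con 48 h against the 24 h group Krt7 (0.34) and Krt19 (0.35) were higher, beside 25.1% of tested genes. Krt14 (-0.80) was lower, beside 25.6%, and fewer of the 6 were called without library a of sdAb-Con 48 h. Leukocyte markers summed to 8 to 16 counts a library over 7 genes, with Ptprc, the pan-leukocyte marker, at 0 to 4, Lyz2 at 0 to 4, Siglech at 0 to 2, Cd3e, Itgam and Adgre1 at 0 or 1, and Coro1a highest at 5 to 10. The endothelial pair Pecam1 and Cdh5 summed to 2 to 11. The 3 fibroblast markers summed to 740 to 1347 counts a library, with Pdgfra alone at 573 to 1304. Pdgfra fell by 0.77 from 24 h to 48 h of sdAb#07.81, beside 22% of tested genes called lower. Library b of sdAb#07.81 24 h was low in Col1a1, with 40 counts against 139 to 214 in the others. It was also low in Dcn, with 3 against 28 to 52. In sdAb-Con 48 h against the 24 h group Dcn (1.71) was higher and Pdgfra (-0.82) lower, beside 25.1% and 25.6% of tested genes. The number called was lower without either sdAb-Con library or library b of 24 h, and higher without any 1 of the other libraries. None of the 3 was called between the antibodies at 48 h (adjusted p, limma, 0.780 to 0.977, and 0 with an unadjusted p under 0.05). The part of these markers in the Ifit values was not tested. Nupr1 itself, whose protein the antibody binds, had 3733 and 2876 counts with sdAb-Con at 48 h, 1694 and 2234 with sdAb#07.81 at 24 h, and 2799 and 2669 with sdAb#07.81 at 48 h. Its log2 difference was -0.17 (SE 0.135, adjusted p = 0.465, limma) against sdAb-Con and 0.68 (adjusted p = 0.000505) against 24 h. Normalized counts were 3553 and 2978 with sdAb-Con at 48 h and 2897 and 2900 with sdAb#07.81 at 48 h.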

How the data were processed

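The authors sequenced RNA of 4T1 cells as read pairs of 150 bases. Per the labels, cutadapt 1.9.1, HISAT2 2.0.1 and HTSeq 0.6.1 were used, with roles not given, and a human build is named although the gene identifiers are those of the mouse. The deposited tables hold, for each of 2 comparisons, a signal that the authors computed: each gene's mean over 4 libraries of counts divided by size factors. They also hold the authors' fold changes, test statistics and p-values, which were not used. The members and the gene lists were chosen with earlier results of these data known.

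Size factors were read from the smallest steps of the means, and whole counts of 6 libraries were rebuilt by lattice enumeration (sympy 1.14.0, numba 0.67.0, Python 3.11.15). Of 28712 genes, 28563 had 1 solution and 149 several. The several-solution genes had means of at least 11991 and held 25.8% and 21.9% of the summed means of the tables. Of 1000 targets shifted away from the deposited values, 0 had a solution. Size factors recomputed from the counts by median of ratios differed by at most 0.138%. The tolerance of 3 half-units in the last of 15 digits was raised from 1.6 after the data were seen. At 1.6, 28586 genes had 1 solution and 1 none, and 0 genes changed counts. The design assumed counts in the files, and the test was run on the rebuilt ones. The 2 libraries in both tables are sdAb#07.81 48 h. The group that one table tags only as a second antibody at 48 h was taken as sdAb-Con by elimination.

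Differences were fitted with limma 3.58.1 (R 4.3.3, mean-variance trend, 1 fit over 6 libraries with 3 residual degrees of freedom) on log2(normalized count + 1) for genes averaging 10 or more normalized counts, and p-values were adjusted by Benjamini-Hochberg over 13804 genes. Scripts were tested on simulated data. Named genes were all Ifit genes, listed genes called in at least 1 comparison or detected at a mean under 10, and the 5 nearest profiles, of which 1 gene, also on a list, is not reported here. Some listed genes that were not called are also named, without values except for Pank1 and Col1a1, whose values were added after they were seen. Nupr1 is given as the antibody's target. Replicates differed by more than counting noise, with a chi-square per gene of 7.33 to 10.1. Alternatives were the scaling, the filter, the pseudocount, the libraries fitted, a fold threshold of 2, voom weights and each library left out. Sequences came from RefSeq (GRCm38.p6) and GENCODE vM21.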

Additional observations from a re-analysis of the deposited data

How the results depend on the processing

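Between the antibodies at 48 h 1373 genes were called (895 higher, 478 lower). The count was 7 without a filter, 2069 in a fit of the 4 libraries compared, 159 with a fold of at least 2 asked for, and 173 (without library a of sdAb#07.81 48 h) to 2087 (without library b of sdAb#07.81 24 h) with each library left out. It was 336 without library b and 518 without library a of sdAb-Con 48 h. With upper-quartile scaling it was 1431, split as 1165 higher and 266 lower. Total-count scaling, a minimum of 100, a pseudocount of 5 and voom weights gave 1346 to 1435. Against sdAb#07.81 24 h, sdAb#07.81 48 h differed in 5955 genes (1603 at a fold of at least 2) and sdAb-Con 48 h in 7002 (2120 at that fold), with 4324 to 5719 and 5099 to 6858 when each library was left out. The count of called fibroblast markers between 24 h and 48 h of sdAb#07.81 went from 1 to 3 without library a of sdAb#07.81 24 h and to 2 without library b of sdAb#07.81 48 h. Leaving out libraries for the gene lists was chosen after seeing the data.

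Ifit1, Ifit2, Ifit3, Ifit3b and Ifit1bl2 kept their direction under each alternative run, and Ifit1bl1, under the minimum, was not refitted. With each library left out the difference between the antibodies at 48 h ran from 1.37 to 2.06 in Ifit1, 0.86 to 1.47 in Ifit2, 1.19 to 2.14 in Ifit3 and 1.26 to 2.19 in Ifit3b. Against 24 h it ran from 2.73 to 3.43, 0.71 to 1.31, 4.12 to 5.14 and 4.37 to 5.30 in that order. Without a filter, where 7 of 28563 genes were called between the antibodies, none of the 5 fitted Ifit genes was among them. The cause was not tested. Ifit1bl2 lost that call without library b of sdAb-Con 48 h (1.00), library a (1.56) or library b (1.35) of sdAb#07.81 48 h. Where a group is left with 1 library, that library is assumed to vary like the others. Low counts limit the values of Ifit1bl1 and Ifit1bl2, and the 24 h values of Ifit3 and Ifit3b, which rest on few reads. No paired analysis was possible because the rebuilt libraries could not be tied to their replicate numbers.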
